A study of Mus musculus with 8 samples.

Results

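The gene set described here is a stretch of mouse chromosome 16 that carries 4 chains of cytokine receptors, Ifnar1, Ifnar2, Il10rb and Ifngr2, together with Sod1, Runx1 and many unrelated genes. Its members were chosen by position, as all genes of chromosome 16 with a start between 82 and 95 Mb (assembly GRCm38) that have a row in the deposited table, apart from Adamts1 and Adamts5. The stretch was selected on the measured difference between knockout and wild type in these same libraries, so the members' levels in the 2 groups are given as a description and not as a test. The rule found 166 of the 47434 genes in the table, 107 of them protein coding. A further 89 genes annotated in the window had no row in the table and were not analysed here.

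The samples were 8 poly-A RNA libraries of Hepa 1-6, an established cell line from a mouse hepatoma. In 4 of them the cells carried a G9a knockout, and the other 4 were wild type. G9a, encoded by Ehmt2, is a histone methyltransferase that acts on lysine 9 of histone H3 and is tied to gene silencing. The series title concerns CXCL10 and immunity against liver tumors. The labels give no treatment, time or clone, and separate cultures are not stated, so the spread between libraries may be technical.

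Type I interferon binds a receptor made of IFNAR1 and IFNAR2, and interferon gamma binds IFNGR1 with IFNGR2 as the second chain. IL10RB is the shared second chain of the receptors for IL-10, IL-22 and interferon lambda. These chains pass the signal through JAK kinases to STAT proteins, which switch on interferon-stimulated genes. In the mouse the 4 receptor genes form a cluster on distal chromosome 16, in a stretch that corresponds to part of human chromosome 21 and is studied in models of trisomy of that chromosome.

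Library totals lay between 58256100 and 75025236 estimated counts. Levels are given as CPM, counts per 1000000 after TMM normalization. A gene without counts in a library could still have had a level of up to 0.0401 to 0.0516 CPM (3 counts). Such limits and counting errors do not cover the variation introduced by PCR. The targeted gene Ehmt2 was at 117, 117, 120 and 119 CPM in the knockout libraries and at 345, 307, 298 and 307 CPM in the wild type, which places every knockout library below every wild-type library; the table has no exon counts that would show the lesion. Of 10 liver markers, Alb, Ttr, Hnf4a and Serpina1a had 0 counts in all libraries, and Afp, Krt8 and Krt18 were the 3 tested. The summed level of the list was 1327 to 1487 CPM in the knockout and 1160 to 1245 CPM in the wild type. Most of it came from Krt8 and Krt18. The median log2 fold change of the 3 was 0.151, and Afp had the largest, 4.53. Afp was at 133 ± 11.9 against 5.77 ± 0.57 CPM (SD, n = 4 per group). Of 8 blood cell markers, Cd3e, Adgre1, Itgam and Hbb-bs were among those with 0 counts in all libraries, and the summed level of the list was 7.39 to 8.24 CPM in the knockout and 4.77 to 7.10 CPM in the wild type. Ptprc, a marker of blood cells, was at 1.08 ± 0.08 against 0.44 ± 0.05 CPM. The part of these markers in the values below was not tested.

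The start regions of 3 receptor genes and of Gabpa, which with Atp5j opens the run of lowered genes, are shown because these genes were lowered to a similar degree and their windows hold different motifs. Each sequence covers 250 bases before and 50 bases after a start in RefSeq (GRCm38.p6), written 5′ to 3′ on the strand of the gene. Capitals mark matches, on either strand, to a GC box (GGGCGG), a site of the ETS family (CCGGAAG), which includes GABPA itself, or a GAS element (TTCNNNGAA), a site bound by STAT dimers. The interferon-stimulated response element was searched as GAAANNGAAA and had no match in these 4 sequences. They lie on the plus strand of chromosome 16 at chr16:84834874-84835173 for Gabpa, chr16:91484965-91485264 for Ifnar1, chr16:91372533-91372832 for Ifnar2 and chr16:91546809-91547108 for Ifngr2.
Gabpa: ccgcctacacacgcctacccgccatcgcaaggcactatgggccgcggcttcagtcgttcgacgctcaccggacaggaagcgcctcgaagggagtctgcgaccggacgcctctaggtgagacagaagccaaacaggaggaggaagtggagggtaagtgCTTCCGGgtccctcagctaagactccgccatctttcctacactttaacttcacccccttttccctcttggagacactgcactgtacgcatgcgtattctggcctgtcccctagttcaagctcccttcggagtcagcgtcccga
Ifnar1: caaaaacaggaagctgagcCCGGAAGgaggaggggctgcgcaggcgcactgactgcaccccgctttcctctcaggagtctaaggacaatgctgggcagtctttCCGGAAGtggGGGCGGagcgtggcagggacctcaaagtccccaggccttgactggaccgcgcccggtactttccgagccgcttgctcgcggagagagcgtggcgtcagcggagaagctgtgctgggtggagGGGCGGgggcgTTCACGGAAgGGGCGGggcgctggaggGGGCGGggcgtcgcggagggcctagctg
Ifnar2: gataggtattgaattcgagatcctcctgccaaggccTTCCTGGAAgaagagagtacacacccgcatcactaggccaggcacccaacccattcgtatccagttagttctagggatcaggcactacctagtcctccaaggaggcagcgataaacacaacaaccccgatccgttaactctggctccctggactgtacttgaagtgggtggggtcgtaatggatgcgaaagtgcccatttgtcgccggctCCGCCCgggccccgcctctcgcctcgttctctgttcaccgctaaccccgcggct
Ifngr2: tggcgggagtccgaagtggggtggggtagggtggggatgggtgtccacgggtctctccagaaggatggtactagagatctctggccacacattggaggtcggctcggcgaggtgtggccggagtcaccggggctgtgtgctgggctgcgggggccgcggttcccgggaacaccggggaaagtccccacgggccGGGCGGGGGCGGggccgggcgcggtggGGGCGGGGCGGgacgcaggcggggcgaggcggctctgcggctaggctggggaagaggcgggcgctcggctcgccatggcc

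The Ifnar1 sequence held 4 GC boxes, 2 ETS matches and 1 GAS match. The Ifnar2 sequence held 1 GC box and 1 GAS match, and the Ifngr2 sequence held 4 GC boxes, some of which touch or overlap. The Gabpa window held 1 ETS match, and it overlaps the window of a divergent Atp5j start (84834927 to 84835226). Another Atp5j start window (84835576 to 84835875) lies outside it. For that other start the Gabpa window falls inside the Atp5j gene. RefSeq start windows were available for 50 of the 56 members with a test, 65 windows in all, and Il10rb was not among them. Some of these windows overlap each other, as for the starts of Scaf4 and of Gm17518. The same bases can therefore count more than once in the shares. A GC box was in 69.2% of these windows, against 60.6% of the 13597 windows of all tested genes and 35.7% of all 32851 windows. ETS matches were in 24.6%, 16.8% and 8.86% of the same sets, GAS matches in 4.62%, 6.83% and 8.30%, and interferon-stimulated response elements in 0, 2.97% and 3.44%. The median GC content of the members' windows was 66.3%, against 60.3% for all tested genes. These matches describe letters within the windows and do not show binding of a factor.

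The 4 receptor chains were all lower in the knockout libraries. Ifnar1 (ENSMUSG00000022967, 91485238 to 91507441, plus strand) was at 23.7, 24.9, 27.1 and 23.0 CPM in the knockout and at 46.7, 49.5, 49.0 and 46.2 CPM in the wild type. The groups were far apart, with the highest knockout library well below the lowest wild-type library. The log2 fold change, knockout minus wild type, was -0.95 ± 0.06 (SE). In a bulk library, fewer cells that express a gene and less RNA per cell cannot be told apart.

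Ifnar2 (ENSMUSG00000022971, 91372783 to 91405589, plus strand), the chain that binds type I interferon with high affinity, was at 8.45, 7.89, 10.3 and 6.84 CPM in the knockout. Its wild-type libraries were at 20.1, 17.4, 16.9 and 18.8 CPM. The groups did not overlap, and knockout replicate 3 was the highest of its group. The log2 fold change was -1.13 ± 0.11.

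Il10rb (ENSMUSG00000022969, 91406164 to 91425834, plus strand) stood lowest of the 4 relative to wild type, at 39.4% of its wild-type mean. Its levels were 9.44, 10.9, 7.21 and 7.88 CPM in the knockout against 21.5, 24.6, 21.4 and 22.3 CPM in the wild type. All 4 knockout libraries were lower than all wild-type libraries, with a log2 fold change of -1.34 ± 0.12.

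Ifngr2 (ENSMUSG00000022965, 91547072 to 91565623, plus strand) was at 8.24, 7.57, 10.2 and 8.66 CPM in the knockout and at 15.2, 15.5, 17.9 and 15.98 CPM in the wild type. It kept 53.8% of its wild-type mean, the largest share of the 4 chains, with a log2 fold change of -0.90 ± 0.10. Differences between the 4 chains in their fold changes were not tested.

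Per length of transcript, the wild-type order of the chains was Ifnar1 (24.2 ± 0.8 TPM, normalized for transcript length), Il10rb (23.8 ± 1.5 TPM), Ifnar2 (17.7 ± 1.3 TPM) and Ifngr2 (8.47 ± 0.63 TPM). The first pair of that order differed by less than their spread, while Ifnar2 and Ifngr2 each stood lower by more than the SD. In the knockout the order was the same, at 13.1 ± 0.9, 10.03 ± 2.14, 7.97 ± 2.03 and 4.77 ± 0.48 TPM, and the spreads of Il10rb and Ifnar2 overlapped. The full-length transcript Ifnar1-201 held most counts of its gene in every library, with 1462 to 1742 counts in the knockout and 2664 to 3196 in the wild type. Ifnar2-203, a shorter transcript that ends before the last exons of the full-length form, was at 47 to 217 counts in the knockout and 276 to 317 in the wild type.

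**Figure D1:**
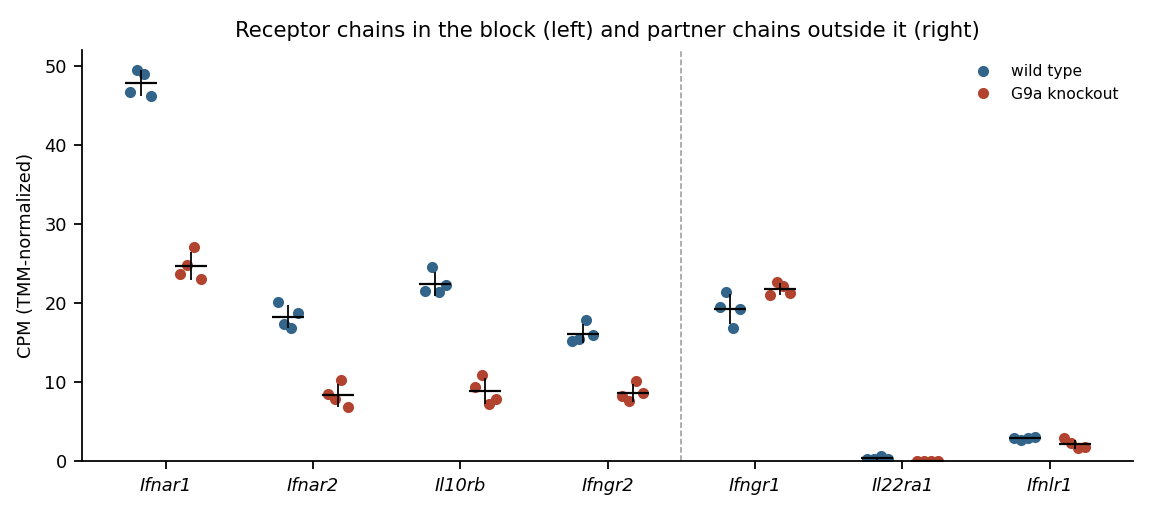
CPM of receptor chains in each library, wild type in blue and G9a knockout in red, with the mean and SD (n = 4) in black. The 4 chains left of the dashed line lie in the chromosome 16 stretch and have no overlap between groups, and Ifngr1, right of it, is at 21.8 CPM in the knockout and 19.2 CPM in the wild type.

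Of 4 tested receptor chains of related receptors on other chromosomes, Ifngr1, Ifnlr1 and Il20rb did not pass the test and Il22ra1 fell. Ifngr1 (chromosome 10), the chain that binds interferon gamma, was at 21.1 to 22.6 CPM in the knockout and 16.8 to 21.4 CPM in the wild type (log2 fold change 0.18 ± 0.08, edgeR adjusted p = 0.0705). Ifnlr1 (chromosome 4), the ligand-binding chain for interferon lambda that pairs with IL10RB, was at 1.67 to 2.94 CPM against 2.71 to 3.13 CPM and did not pass (log2 fold change -0.43 ± 0.19, edgeR adjusted p = 0.0760). Il22ra1, the partner of IL10RB for IL-22, had counts in 1 knockout library only, and its wild-type libraries were at 0.26 to 0.65 CPM. Il10ra had 0 counts in all 8 libraries.

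Of the 11 tested genes in the list of other receptor chains, kinases and STATs, 4 rose, 1 fell and 6 did not pass, with a median log2 fold change of 0.20. Over all 15840 tested genes, 23.6% were higher and 23.6% lower, so in this fit the counts of the list are not far from that background. The receptor kinase genes Jak1 and Jak2 rose by 0.20 ± 0.05 and 0.40 ± 0.05 on the log2 scale, and Stat3 by 0.52 ± 0.05. The gene that fell was Il22ra1. With library totals alone as the scaling, 7 of the 11 were higher, and without knockout replicate 1, 2 were lower. With a mean of at least 5 CPM required, 6 of 8 tested were higher and 0 lower. Over all 9978 genes tested in that setting, 2919 were higher and 2867 lower.

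Of 9 tested feedback inhibitors, 5 rose and 2 fell, beside 23.6% of all tested genes each way. Without knockout replicate 1, 3 were higher, and without knockout replicate 2, wild-type replicate 2 or wild-type replicate 3, 1 was lower. Usp18, which removes ISG15 and binds IFNAR2 to dampen the signal, was at 5.66 ± 0.45 against 1.40 ± 0.37 CPM. Socs3, an inhibitor of JAK kinases, rose by 0.60 ± 0.09 on the log2 scale, and Cish was lower at 2.68 ± 0.28 against 5.03 ± 0.84 CPM. Usp18, Socs3 and Cish were named after their values were seen. Of the inhibitors picked by level, Ptpn2, which fell, lost its call without knockout replicate 2 (log2 fold change -0.168), among other alternatives. Ptpn6, which rose, lost its call without knockout replicate 1 (0.164), among others.

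Among 36 tested interferon-stimulated targets, 31 rose, 1 fell and 4 did not pass (23.6% each way over all tested genes), with a median log2 fold change of 1.89 against 0.00369 over all tested genes. Ifi27 was at 53.1 ± 3.7 against 6.62 ± 1.21 CPM and Ddx58, the RNA sensor RIG-I, at 36.7 ± 2.5 against 19.7 ± 1.0 CPM. The target that fell was Adar, an RNA editing enzyme (log2 fold change -0.17 ± 0.06, edgeR adjusted p = 0.0362). Its call was lost without knockout replicate 1, 3 or 4 or wild-type replicate 1, 2 or 4, at log2 fold changes between -0.14 and -0.17, and also with library totals alone (-0.092), a filter of 5 CPM (-0.13), all genes of at least 1 count (-0.17) or coding transcripts alone (-0.15). The knockout libraries had lower RNA of 4 receptor chains and higher RNA of these targets at the same time. Of 22 ligand genes in the table, Ifnz was the 1 tested, at 0.15 ± 0.08 against 0.15 ± 0.07 CPM. The other 21 had at most 0.0774 CPM as a mean over the libraries. The targets Parp9, Parp14 and Dtx3l also lie on chromosome 16, outside the window, and were among those that rose.

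Of the 166 members, 56 passed the filter on low counts, and 48 of these were protein coding. The other 110 were not tested: 81 had 0 counts in all 8 libraries, and the highest mean among the 110 was 0.107 CPM. They included all 25 keratin-associated protein (Krtap) genes of the window, which build the hair shaft and had no count in any library, and the neural transcription factor genes Olig1 and Olig2. Sim2 had 0 counts in all knockout libraries and 20, 3, 0 and 8 counts in the wild-type libraries, and was not tested. App, the gene of the amyloid precursor protein, is named in the rule, but only 1 of its 11 annotated transcripts had a row, with 7 counts in all. The other App transcripts were not analysed here, and no level of App is given.

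Of the 56 members with a test, 42 were lower in the knockout (edgeR, adjusted p under 0.05), 4 were higher and 10 were neither. Over all 15840 tested genes the background was 23.6% lower and 23.6% higher. In 41 members every knockout library was below every wild-type library, a pattern seen in 21.4% of all tested genes. The median log2 fold change was -1.01 over the 56 members, 0.00369 over all tested genes and 0.05 over the 388 tested genes on the rest of chromosome 16. Because the stretch was picked for this shift, nothing is read from these counts.

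**Figure D2:**
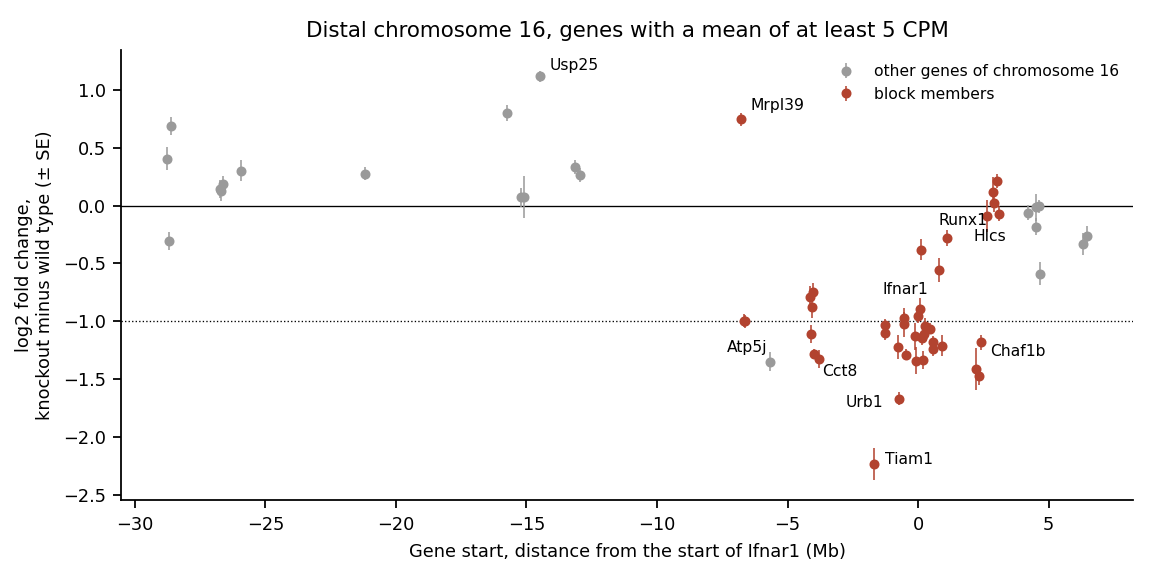
Log2 fold change (knockout minus wild type, bars are SE) of genes at a mean level of 5 CPM or more against the distance of their start from the start of Ifnar1 in Mb. Block members (red) drop after Mrpl39 to near -1, marked by the dotted line, and return to near 0 at Hlcs; the grey point between them is Adamts1 at -1.35, which the rule does not include.

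The lower levels began and ended abruptly along the chromosome. Of genes at a mean level of 5 CPM or more, the last one before the proximal step was Mrpl39 (84717576 to 84735742), a protein of the mitochondrial ribosome, at 74.0, 69.9, 79.4 and 73.9 CPM in the knockout and 42.5, 42.9, 43.8 and 47.7 CPM in the wild type. The next was Atp5j (84827866 to 84835625), a subunit of ATP synthase, at 53.6, 54.0, 56.9 and 59.8 CPM against 113, 106, 108 and 121 CPM. The log2 fold change went from 0.75 ± 0.06 to -0.99 ± 0.06 across a gap of 92.1 kb. Jam2, a junction protein gene, starts within that gap and was at 0.19 ± 0.14 against 0.29 ± 0.18 CPM, too low to place on either side.

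The distal step fell between Chaf1b (93883901 to 93906115), a subunit of the CAF-1 histone chaperone, and Hlcs (94128882 to 94313571), which attaches biotin to carboxylases. Chaf1b was at 26.4, 26.8, 29.9 and 31.5 CPM in the knockout and 64.6, 65.8, 65.1 and 64.7 CPM in the wild type, without overlap. Hlcs was at 5.20 to 7.42 CPM against 5.73 to 7.90 CPM, and the groups overlapped. The gap between the genes was 223 kb, and the log2 fold changes were -1.18 ± 0.06 and -0.09 ± 0.14.

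The values changed at these steps and not at the bounds of the rule. The genes with at least 5 CPM just before 82 Mb were Usp25, Btg3 and D16Ertd472e, with log2 fold changes of 1.12, 0.34 and 0.27, and the first members after it were Mrpl39, Atp5j and Gabpa. The last members before 95 Mb were Ttc3, Vps26c and Dyrk1a, with log2 fold changes of 0.02, 0.22 and -0.07, and the next genes outside were Ets2 and Psmg1, at -0.06 and -0.18. The 10 genes before the proximal step, from 64.85 to 84.72 Mb, had a median of 122.3% of wild type, 8 of them higher and none lower. The 10 genes after the distal step, up to 96.15 Mb, had a median of 97.4%, with 1 higher and 1 lower. Over all tested genes 23.6% were higher and 23.6% lower. Neither DNA nor chromatin was measured in these libraries.

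Between the steps, from Atp5j to Chaf1b (9.08 Mb), 48 members were tested and 42 were lower, 1 higher and 5 neither. These ends were read off the fold changes, so the counts between them were largely set in advance and are a description. Over all tested genes 23.6% were lower, and in 21.4% every knockout library was below every wild-type library. The 35 members between the steps that reached a mean of 5 CPM were all lower, 34 of them without overlap between groups. Their median level was 46.2% of wild type, and the middle of the distribution ran from 41.8% to 50.6% (first to last quartile). A level between 40% and 60% of wild type was found in 25 of the 35, less than 40% in 7 and more than 60% in 3. Over all 9977 genes at that level, 279 (2.80%) were between 40% and 60%, and on the rest of chromosome 16 it was 2 of 271. Because the stretch and its ends were chosen by these values, nothing is read from that contrast.

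The shift was alike in every knockout library. Over the 35 genes the median ratio to the wild-type mean was 46.0%, 46.0%, 46.4% and 48.1% in the 4 knockout libraries and 96.6%, 101.5%, 100.8% and 100.3% in the wild-type libraries. Their summed level was 1625 to 1644 CPM against 3516 to 3629 CPM. Genes on the plus strand (17) and on the minus strand (18) had medians of 45.7% and 46.3%. Along the interval the first 12, the next 12 and the last 11 genes had medians of 47.7%, 45.5% and 44.1%. Across these 35 genes, which share the same libraries, Spearman's rho of the log2 fold change was -0.13 with the log2 wild-type level and -0.31 with the gene span.

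**Figure D3:**
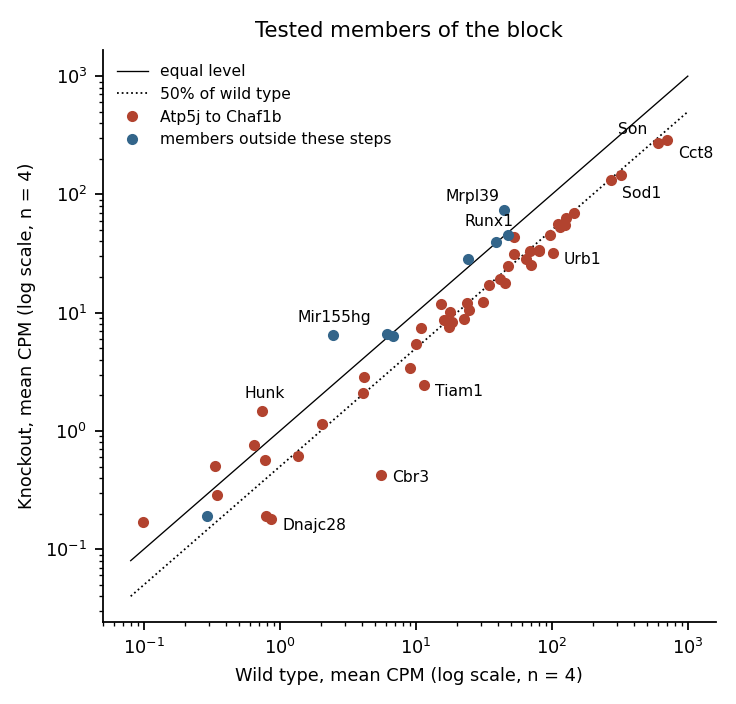
Mean CPM of the 56 tested members in the knockout against the wild type (both log scales, n = 4 libraries per mean); the solid line is equality and the dotted line is 50% of wild type. At 5 CPM and more, 25 of 35 members between the steps (red) are at 40% to 60% of wild type, near the dotted line; at lower levels they scatter widely on both sides of it, as Cbr3, Dnajc28 and Hunk show.

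The most abundant members were housekeeping genes. Cct8, the theta subunit of the CCT chaperonin that folds actin and tubulin, was at 289, 270, 299 and 303 CPM in the knockout and 697, 698, 713 and 711 CPM in the wild type. Son, a nuclear speckle protein needed for splicing, was at 280, 301, 252 and 255 CPM against 583, 627, 608 and 596 CPM. Both genes were without overlap, and their log2 fold changes were -1.28 ± 0.04 and -1.15 ± 0.06. Scaf4 and Paxbp1, the other RNA processing members, were at 46.6% and 40.9% of wild type.

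Sod1 (90220754 to 90226329, plus strand), the copper and zinc superoxide dismutase of the cytosol, was at 132, 122, 137 and 136 CPM in the knockout and 274, 252, 264 and 291 CPM in the wild type. The groups were well separated, with 48.8% of the wild-type mean left and a log2 fold change of -1.03 ± 0.06. It overlaps Scaf4 by 650 bases on the opposite strand. Among its partners outside the window, Sod2, the mitochondrial enzyme, was at 73.1 ± 2.5 against 85.4 ± 2.8 CPM (log2 fold change -0.22 ± 0.05, edgeR adjusted p = 0.00146). Sod3, the secreted enzyme, was at 5.78 to 6.83 CPM against 0.25 to 0.62 CPM, and Ccs, the copper chaperone of SOD1, was at 12.9 ± 1.8 against 12.8 ± 1.9 CPM.

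Gart, which carries 3 activities of purine synthesis, was at 148, 145, 142 and 148 CPM in the knockout against 341, 309, 303 and 335 CPM in the wild type. The knockout values lay close together and far below the wild type, with a log2 fold change of -1.14 ± 0.05. With counts of protein-coding transcripts alone this was -0.46 and did not pass. The estimated split between its transcripts differed between replicates: Gart-203, annotated as a target of nonsense-mediated decay, had 0, 4818, 0 and 4170 counts in the knockout libraries and 5712, 10554, 12613 and 13949 in the wild type. Gart also overlaps the antisense gene Gm15964.

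Transcription factor members were lowered to different degrees. Gabpa, an ETS factor that controls many nuclear genes of mitochondria, was at 66.4, 63.6, 61.6 and 63.3 CPM against 116, 133, 134 and 128 CPM, and Bach1, a repressor of antioxidant genes, was at 17.9 ± 1.6 against 44.9 ± 2.8 CPM. Runx1 (92601466 to 92826149, minus strand), a regulator of blood cell development, had the smallest difference among the 35 genes. It was at 40.7, 49.2, 43.1 and 39.96 CPM in the knockout and 48.2, 56.1, 53.6 and 52.1 CPM in the wild type. Knockout replicate 2 was above wild-type replicate 1, so the groups overlapped, and the level was 82.3% of wild type (log2 fold change -0.28 ± 0.07). Its partner Cbfb and the related Runx2, both outside the window, were at 159 ± 9 against 164 ± 5 CPM and at 48.2 ± 2.7 against 52.2 ± 2.6 CPM, and neither passed; without knockout replicate 2, Runx2 did (-0.15).

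Members that act on chromatin and in the nucleus included some of the lowest ratios. Urb1, needed for the large ribosomal subunit, was at 30.7, 35.6, 29.9 and 31.9 CPM against 101.3, 103.3, 103.5 and 99.6 CPM, or 31.4% of wild type. Morc3, a chromatin ATPase, was at 36.1%, and Mis18a, which helps load the centromeric histone, at 42.8%. N6amt1, a methyltransferase that modifies translation release factor, was at 57.8%. Of the 7 members in this role list, Hlcs, beyond the distal step, was the 1 that was not lower. The background was 23.6% of all tested genes, and the stretch was picked for being lower. The list is broad and includes N6amt1 and Hlcs, so its count does not describe chromatin proteins alone.

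Among members for protein folding and ubiquitin, Ltn1, the ubiquitin ligase of stalled ribosomes, was at 52.8 ± 3.9 against 114 ± 12 CPM and Usp16, which removes ubiquitin from histone H2A, at 31.5 ± 3.2 against 52.8 ± 3.4 CPM. The mitochondrial members Atp5o and Mrps6 were at 47.8% and 42.4% of wild type, while Mrpl39 before the proximal step was at 168%. A second annotated gene with the name Atp5o had 5 counts in all and was not tested. Mrps6 overlaps Slc5a3, the transporter of myo-inositol (55.1 ± 2.2 against 125 ± 6 CPM), on the same strand, so reads of these genes could have gone to either. In all, 21 tested members were in 12 overlapping pairs, 2 of them on the same strand.

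Of the 10 tested members of membrane trafficking and signaling, 6 were lower, 2 higher (Hunk and Vps26c) and 2 neither (Dyrk1a and Pigp). Vps26c, Dyrk1a and Pigp lie beyond the distal step. Over all tested genes 23.6% were lower and 23.6% higher, and the stretch was picked for being lower. This role list is broad and also holds Donson. Itsn1, a scaffold of endocytosis, was at 30.1, 37.2, 31.4 and 35.1 CPM against 70.7, 67.2, 65.3 and 72.3 CPM, and Synj1, a phosphatase of synaptic and endocytic membranes, was at 51.1%. Rcan1, an inhibitor of calcineurin, was at 43.1%. Tmem50b, a membrane protein gene next to Ifngr2, was at 10.9, 10.9, 14.1 and 11.3 CPM against 15.3, 15.5, 14.8 and 15.8 CPM. Its ratio of 76.9% was 1 of the 3 over 60%, beside Runx1 and Smim11 (67.8%).

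The 7 genes under 40% were Tiam1, Urb1, Morc3, Dop1b, Il10rb, Donson and Bach1. Below the level of 5 CPM, Cbr3, a carbonyl reductase, was at 0.42, 0.16, 0.52 and 0.59 CPM against 5.38, 5.15, 5.75 and 5.91 CPM. That is 7.59% of wild type and a log2 fold change of -3.72 ± 0.28, the lowest of the members with at least 1 CPM in either group. Its neighbor Cbr1 was at 0.17 ± 0.11 against 0.10 ± 0.09 CPM. Dnajc28, a member of the J-domain family, was at 0.18 ± 0.07 against 0.86 ± 0.17 CPM.

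Tiam1 (89787111 to 90143769, minus strand), an exchange factor that activates the GTPase RAC1, differed in both level and transcript. The gene was at 2.50, 1.95, 2.86 and 2.43 CPM in the knockout and 12.9, 10.1, 10.4 and 12.4 CPM in the wild type. Transcript Tiam1-201, which starts at 89960827, had 750, 635, 709 and 686 estimated counts in the wild-type libraries and 0 in all knockout libraries. Tiam1-204, which starts upstream at 90143769, had 189, 129, 163 and 160 estimated counts in the knockout and 0 in all wild-type libraries. With a limit of 3 counts over the group, that is at least 990-fold lower and at least 200-fold higher. Both folds hold only if reads were assigned to the right transcript. A count of 0 can also come from that assignment, as for Gart-203 (0, 4818, 0 and 4170 in the knockout).

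A wider rule was that the transcript holding most of a gene's counts in every wild-type library fell to less than 50% in every knockout library. It held for 1 of the 41 members with at least 2 transcripts and 1 CPM. This rule does not ask for a complete separation like that of Tiam1. The background of the wider rule was 0.316% of 8853 genes. The counts of single transcripts are estimates, and for Chaf1b and Mir155hg the split between transcripts differed between replicates of a group. The table has no junction counts to check the split for Tiam1.

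**Figure D4:**
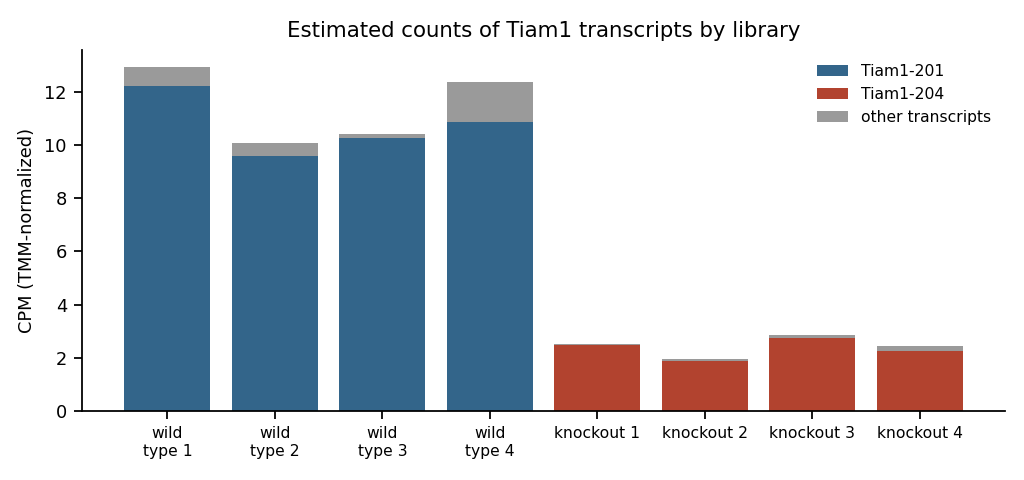
Estimated counts of Tiam1 transcripts as CPM, stacked for each library. The wild-type libraries hold Tiam1-201 (blue) and no Tiam1-204, and the knockout libraries hold Tiam1-204 (red) and no Tiam1-201, at a lower sum.

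The 4 members that were higher in the knockout were Mir155hg, Mrpl39, Hunk and Vps26c, and only Hunk lies between the steps. Hunk, a kinase gene related to SNF1, was at 1.17, 1.69, 1.56 and 1.46 CPM against 0.75, 1.29, 0.41 and 0.52 CPM, and wild-type replicate 2 lay above knockout replicate 1. Its call was lost without some single libraries: the log2 fold change of 0.98 went to 0.92 without knockout replicate 2, 0.96 without knockout replicate 3, 0.78 without wild-type replicate 3 and 0.85 without wild-type replicate 4. Vps26c, a part of the commander and retriever sorting machinery beyond the distal step, was at 116% of wild type.

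Mir155hg, the host gene of miR-155, a regulator of immune cells, lies just before the proximal step at 84703167 to 84715245. It was at 6.24, 5.68, 6.89 and 6.88 CPM in the knockout and 1.68, 2.29, 3.17 and 2.71 CPM in the wild type, without overlap, and its log2 fold change was 1.38 ± 0.17. Of the mature miRNAs that it encodes, miR-155-5p is shown, because the host RNA had the highest log2 fold change of the tested members. Its seed (bases 2 to 8) is in capitals, and the sequence is from RefSeq (GRCm38.p6), chr16:84714143-84714165 on the plus strand. The miRNA itself was not measured in these poly-A libraries.
mmu-miR-155-5p: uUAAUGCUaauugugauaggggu

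Several members are single subunits of complexes whose other subunits are encoded elsewhere. The counts of partners below stand beside 23.6% higher and 23.6% lower over all tested genes. Of the 7 other CCT subunits, 6 fell and 1 did not pass, with a median log2 fold change of -0.24 against -1.28 for Cct8. Tcp1 was at 845 ± 34 against 997 ± 49 CPM and Cct3 at 803 ± 27 against 1014 ± 26 CPM. Per length, Cct8 had rank 3 from the lowest of the 8 subunits in every wild-type library (582 to 594 TPM) and lowest in every knockout library (245 to 261 TPM). The median of the other subunits was 791 to 822 TPM and 720 to 786 TPM. The lowest of them was at 303 to 351 TPM and 263 to 277 TPM. Cct8 was thus close to it in the knockout, at 261.1 against 263.3 TPM in replicate 4.

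The 14 partners of Atp5j and Atp5o in ATP synthase had 2 higher, 4 lower and 8 that did not pass, with a median log2 fold change of -0.09. These counts are near the background shares of 23.6% each way. Atp5b, the catalytic beta subunit, was at 1394 ± 60 against 1614 ± 99 CPM, and Atp5g3, a subunit of the rotor ring, fell by 0.69 ± 0.04 on the log2 scale. Atp5j ranked 6 or 7 from the lowest of 16 by TPM in the wild type and 2 in each knockout library. Atp5o went from rank 10 or 11 to rank 3 or 4.

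The 5 partners of Gart in purine synthesis had 2 higher (Paics and Ppat) and 3 lower (Atic, Adsl and Pfas), with log2 fold changes between -0.20 and 0.24. With library totals alone as the scaling, 2 were higher and 1 lower. Gart had rank 4 from the lowest of the 6 enzymes by TPM in the wild type and rank 2 or 3 in the knockout. Of the 8 partners of Chaf1b and Mis18a, 1 rose and 4 fell (2 with protein-coding transcripts alone, near the background share of 23.6%). Cenpa, the centromeric histone, was at 278 ± 10 against 167 ± 6 CPM, and Chaf1a, the large subunit of CAF-1, was at 216 ± 14 against 212 ± 18 CPM. Of the 6 partners of Ltn1 and N6amt1, 1 rose and 3 fell, with Nemf, the ribosome-binding partner of Ltn1, at 70.9 ± 3.8 against 92.0 ± 5.0 CPM.

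Processing enzymes and paralogs of App were also outside the window. Of 11 tested, 7 rose and 2 fell, beside 23.6% each way over all tested genes. Aplp2, a paralog of App, was at 519 ± 12 against 376 ± 6 CPM, Adam10, the main alpha-secretase, rose by 0.24 ± 0.06 on the log2 scale and Bace1, the beta-secretase, by 0.37 ± 0.05.

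**Figure D5:**
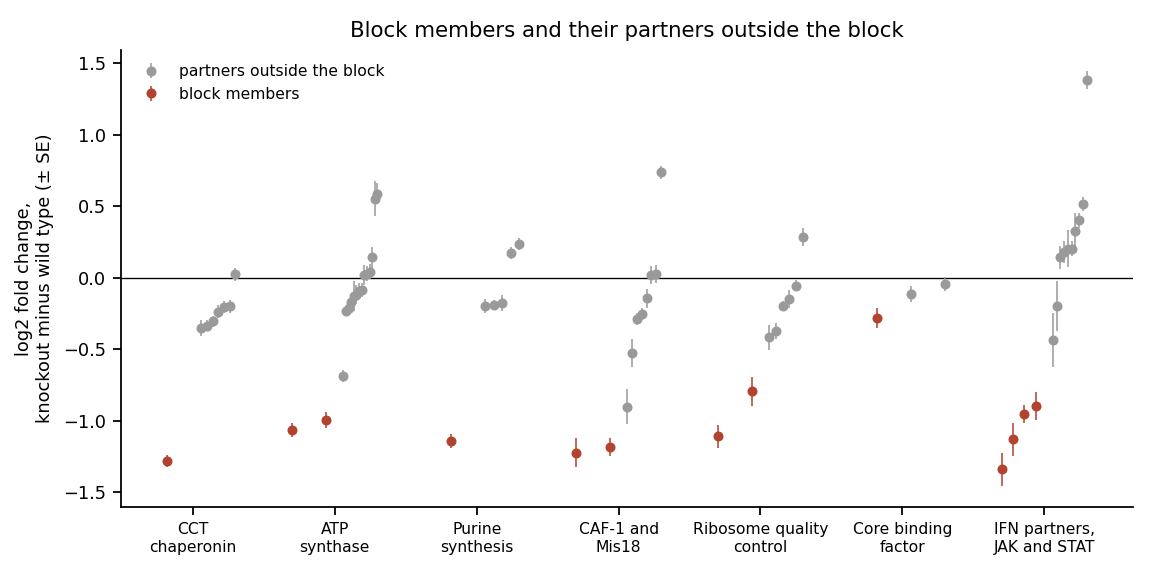
Log2 fold change (knockout minus wild type, bars are SE) of block members (red) and of genes of the same complex or pathway outside the block (grey). Cct8, Atp5j, Atp5o, Gart, Chaf1b, Mis18a, Ltn1, N6amt1 and the 4 receptor chains lie between -0.79 and -1.34, Runx1 lies at -0.28, and most partners lie nearer 0; Il22ra1 (-4.87) is not drawn.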

How the data were processed

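RNA of 8 libraries was measured by poly-A sequencing (TRIzol extraction and a SMARTer mRNA kit, per the labels' protocols). FastQC, Trimmomatic, HISAT2 and GRCm38.p6 appear in the submitters' processing notes, without version or role. How reads were counted, on which strand and with which annotation is not given in the sources used here. As deposited, the table holds estimated counts per transcript, whole numbers without normalization, in columns grouped by genotype per the file headers. The design had assumed counts per gene, so transcripts were summed per gene by GENCODE mouse release M21 (114332 of 115220 transcripts matched, 99.23%), and no rounding was needed. The 888 unmatched transcripts (0.148% to 0.17% of a library's counts) were left out. Each library was 1 replicate, since replicates differed beyond counting noise (chi-square per degree of freedom at least 10.3). Genotypes were compared over all genes in edgeR 4.0.16 under R 4.3.3 by its quasi-likelihood F test (TMM, filterByExpr, two-sided, Benjamini-Hochberg, adjusted p under 0.05), so that a p-value reflects only how much these libraries vary, which may be technical. SE was derived from the log2 fold change and F (their ratio with F under a square root). "Rose", "fell", "higher" and "lower" in counts refer to that threshold. CPM were TMM-normalized, and TPM were computed from transcript counts and annotated exonic lengths. Overlapping genes could share reads. Alternatives were DESeq2 1.42.0, limma-voom 3.58.1, 3 other scalings, 2 other filters, coding transcripts alone, other bounds, a replicate block and each library left out. The code was tested on simulated data.

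The members and gene lists were chosen with earlier results of these data known. Named genes were the 4 receptor chains, App, Sod1 and Runx1; up to 4 members of each other role list by wild-type CPM; the 4 lowest and 4 highest log2 fold changes among members with at least 1 CPM; 3 genes on each side of the bounds; up to 4 genes of each outside list by mean CPM; and Ehmt2. Not all of them are described, some genes of the lists are not reported here, and other genes were chosen after their values were seen. RefSeq start windows (GRCm38.p6) were read with Python 3.11.15.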

Additional observations from a re-analysis of the deposited data

Results flagged for a closer look

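In groups of 4 libraries, a library was singled out when its gap to the nearest other library, divided by the range of the group, passed Dixon's critical value. Of 72 groups examined among members, 2 had such a library, and chance gives about 1 in 20. Knockout replicate 3 stood above the other knockout libraries for Tmem50b, at 14.09 CPM against 10.9 to 11.3 CPM. Without it the log2 fold change of Tmem50b went from -0.38 to -0.47. Wild-type replicate 2 stood above the other wild-type libraries for Ttc3, a ubiquitin ligase gene beyond the distal step, at 45.57 CPM against 36.1 to 37.5 CPM.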

How the results depend on the processing

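The main counts were 42 members lower, 4 higher, 44 called interferon pathway genes outside the block, and a median of -1.01. With the replicate block these were 41, 4, 44 and -1.01. The interferon pathway lists held 11, 9 and 36 tested genes, and 23.6% of all tested genes were called each way. The replicate numbers share only a number: deviations of same-numbered libraries correlated by -0.0226, -0.00184, 0.0751 and -0.0177. Leaving out 1 library gave 40 to 42 lower, 3 to 4 higher, 40 to 43 interferon pathway genes, and medians between -1.049 (without knockout replicate 4) and -0.986. The median was -0.935 with library totals alone, which moved the median of all genes by 0.08 and gave 4543 higher and 2742 lower genes. It was -0.868 with DESeq2 and -0.893 with all genes of at least 1 count, both over 85 members. With a mean of at least 5 CPM required, fewer genes were tested, and 2 members were higher and 25 interferon pathway genes called. Values that changed sign belonged to genes that did not pass: with library totals alone Dyrk1a was at 0.01, Ets2 at 0.019, Ifnz at 0.067 and Cbfb at 0.038, and with limma-voom Ifnz was at 0.002. Leaving out 1 library gave Ttc3 between -0.016 and 0.108, Ifnz between -0.488 and 0.176, Ccs between -0.093 and 0.092, and Chaf1a between -0.013 and 0.076. Gart and Hunk, whose calls were lost under some alternatives, are given in the report. Members under about 1 CPM are limited by depth.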
